A study of Mus musculus with 19 samples.

Results

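Splenic natural killer (NK) cells cultured with interleukin-2 (IL-2) and 0.25 µM of a JAK3 inhibitor were compared with cells cultured with IL-2 alone. The samples were chosen from their labels, as 2 samples that carry the inhibitor code 6226 at 0.25 µM and 4 IL-2 samples that carry no inhibitor code, so 6 of the series' 19 samples enter the comparison. All cells came from the spleens of 6-week-old male C57BL/6 mice by negative selection with an EasySep kit, which leaves unlabelled cells behind, and the labels name NK1.1 as their marker. IL-2 was given at 250 U/ml for 8 h in both groups, with or without the inhibitor. Untreated cells (3 samples, of which 2 are labelled with 8 h and replicate 2 with no culture time), IL-2 with the same inhibitor at 1 µM and 4 µM (2 samples each) and IL-2 with a JAK1 inhibitor, code 3404, at 0.25 µM (2 samples) served as reference groups. Both inhibitors are known here by a code only. Whether samples sharing a group are from different mice or cultures is not stated, so the p-values may reflect technical spread alone.

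IL-2 acts on NK cells through a receptor whose beta chain binds the kinase JAK1 and whose common gamma chain binds the kinase JAK3, while the alpha chain raises the affinity for IL-2. The kinases phosphorylate STAT5, which enters the nucleus and binds DNA at motifs of the form TTCNNNGAA. In NK cells the signal drives proliferation, survival and the filling of cytotoxic granules, and the SOCS family proteins that it induces act back on the receptor as inhibitors. Interferons signal through other receptors, which use JAK1 with TYK2 or JAK2 and not JAK3.

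Each sample was hybridised to 1 Affymetrix Mouse Gene 1.0 ST array, and 19752 genes were measured. The deposited intensities lie on 2 scales: 7 samples have median log2 intensities from 7.487 to 7.594 (the high-intensity set) and 12 have medians from 5.697 to 5.895 (the low-intensity set). Replicate 1 of the JAK3 inhibitor at 0.25 µM and replicates 1 and 2 of IL-2 lie in the high set, and replicate 2 of the inhibitor and replicates 3 and 4 of IL-2 in the low set, so each inhibitor sample has a pair of IL-2 samples on its own scale. Levels below are log2 intensities as deposited, to be read within a set. Changes are log2 differences from a limma fit over all 19 samples with a term for the set, given ± SE, and a gene was called when its adjusted p (Benjamini-Hochberg over all genes) was under 0.05.

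The cells were checked against a list of NK cell markers. Of 15 measured markers, 11 were lower with the inhibitor than with IL-2 and 0 were higher, with a median change of -1.14. The mean level of the list, adjusted for the set, lay between 8.83 and 8.87 with the inhibitor, between 9.77 and 10.12 with IL-2 and between 8.71 and 8.94 in untreated cells. Ncr1, which encodes the activating receptor NKp46, read 10.20 with the inhibitor against 12.11 and 12.04 with IL-2 in the high set, and 8.40 against 10.46 and 10.41 in the low set. Untreated cells gave 10.05 in the high set and 7.89 and 8.14 in the low set. The marker genes thus stood apart between the groups, the inhibitor samples lay close to the untreated ones, and these genes cannot serve as a measure of how many NK cells a sample held. In these bulk samples, fewer cells of a type and less RNA per cell cannot be told apart.

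The inhibitor at 0.25 µM changed 987 of 19752 genes relative to IL-2. Of these, 446 (2.26% of the genes tested) were lower and 541 (2.74%) were higher, and 135 of the lower and 159 of the higher genes differed at least 2-fold. At an unadjusted p under 0.05, 2569 genes differed, and the median change of all genes was 0.06. All 446 lower genes lay below both IL-2 samples of the set in both sets, and all 541 higher genes above them. Over all genes tested, 12.9% lay below and 19.4% above in this way. The called genes were picked from these same values, so their separation adds no support to the calls. The count rested on both inhibitor samples: it was 309 without replicate 1 and 322 without replicate 2. It was 2258 when only the 2 groups were fitted, 1785 with quantile normalization, 113 within the low set and 0 within the high set. With a term for the form of the sample's title, which splits the samples as the sets do but for 1, it was 90. Below, counts of lists without these samples are given where they differ by more than 1.5 times.

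**Figure D1:**
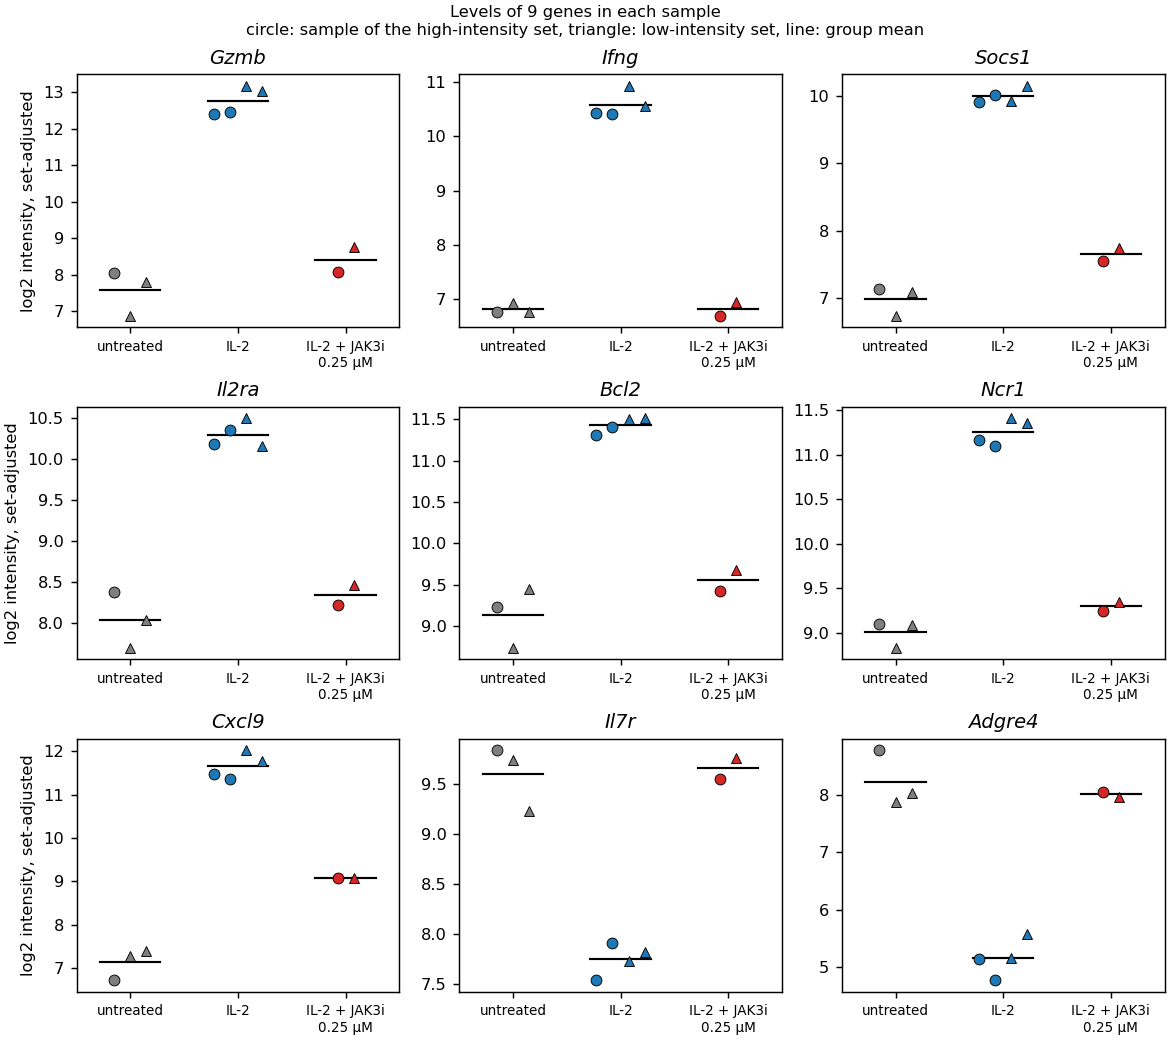
Log2 intensities, adjusted for the intensity set, of 9 genes (1 panel each) in the untreated, IL-2 and IL-2 with 0.25 µM JAK3 inhibitor samples; points are samples and lines are group means. In each panel both inhibitor samples lie apart from all 4 IL-2 samples. Of these 9 genes only Cxcl9 was called higher with the inhibitor than in the 3 untreated samples.

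The largest fall was that of Gzmb, which encodes granzyme B, a protease that NK cells release to kill targets. It read 9.07 with the inhibitor against 13.40 and 13.44 with IL-2 in the high set, and 7.76 against 12.17 and 12.03 in the low set. Untreated cells gave 9.03 in the high set and 5.88 and 6.80 in the low set. Both inhibitor samples were thus far below every IL-2 sample of their set. Relative to untreated cells, the inhibitor sample was near in the high set (0.04 above) and higher in the low set (1.42 above). The change from IL-2 was -4.35 ± 0.39 (a 20.3-fold difference, adjusted p = 4.01e-07). Ifng, the gene of interferon gamma, read 7.34 against 11.09 and 11.08 in the high set and 6.30 against 10.27 and 9.90 in the low set. Its change was -3.77 ± 0.19 (13.6-fold, adjusted p = 4.26e-10), and its level was within 0.01 ± 0.20 of that in untreated cells.

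The receptor and kinase genes themselves moved less. Of 6 measured genes of the IL-2 receptor chains and Janus kinases, 2 were lower, 0 were higher, and the median change was -0.21; Jak3 and the common gamma chain gene Il2rg were not analysed here. Il2ra, the alpha chain, read 8.89 with the inhibitor against 10.86 and 11.03 with IL-2 in the high set, and 7.78 against 9.82 and 9.48 in the low set, a change of -1.96 ± 0.20 (adjusted p = 2.83e-06). Il2rb, the beta chain, read 12.04 against 12.83 and 12.95 and 10.15 against 11.46 and 11.39, a change of -1.06 ± 0.18 (adjusted p = 0.000963). For both chains the inhibitor sample lay below both IL-2 samples of its set in each set, as did 12.9% of all genes. Jak1 was not called, with a change of 0.37 ± 0.14 (adjusted p = 0.154). None of 6 measured STAT genes was called by limma, and 2 had an unadjusted p under 0.05, 1 in each direction. Stat5a differed by 0.16 ± 0.18 and Stat5b by 0.42 ± 0.20, so the genes of the transcription factors that IL-2 activates showed no change past the test.

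Of the feedback inhibitors of cytokine signalling, 4 of 17 measured members were lower (Socs1, Cish, Socs3 and Ptpn2) and 0 higher, with a list median of -0.05. Without replicate 1 or 2 of the inhibitor, or replicate 2, 3 or 4 of IL-2, 2 were lower. Socs1, whose protein binds and blocks Janus kinases, read 8.32 with the inhibitor against 10.68 and 10.79 with IL-2 in the high set, and 6.98 against 9.15 and 9.39 in the low set (change -2.35 ± 0.15, adjusted p = 1.12e-08). Cish, a SOCS family member and STAT5 target, read 7.49 against 9.15 and 9.41 and 5.81 against 8.08 and 7.82 (change -1.97 ± 0.16, adjusted p = 1.3e-07). The Cish values with the inhibitor lay within 0.2 of the untreated ones in each set, which were 7.39, 5.70 and 5.66. Socs3 fell by 0.67 (SE 0.17, adjusted p = 0.0242), a call lost without either inhibitor sample (adjusted p = 0.11 and 0.561) and without replicate 2, 3 or 4 of IL-2 (0.0739 to 0.0899), and Ptpn2, which encodes a phosphatase of JAK1, JAK3 and STAT5, fell by 0.56 (SE 0.15), a call lost without the same samples (adjusted p = 0.0963 to 0.381). Socs2, another STAT5 target, differed by -0.39 ± 0.17 and was not called (adjusted p = 0.294).

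Known targets of IL-2 and STAT5 were lower as a list. Of 48 measured members, 28 were lower, 2 were higher (Dhrs3 and Rora), and the median change was -0.76, beside 0.06 over all genes. Without replicate 1 or without replicate 2 of the inhibitor 19 were lower and 0 higher. Tnfrsf9, which encodes the costimulatory receptor 4-1BB, read 9.16 against 11.78 and 12.10 in the high set and 7.97 against 11.06 and 10.98 in the low set (change -2.92 ± 0.21, adjusted p = 3.76e-08). Bcl2, a gene of survival, read 10.24 against 12.12 and 12.21 and 8.87 against 10.69 and 10.71 (change -1.88 ± 0.19, adjusted p = 1.98e-06). In both genes the gap between the groups was many times the distance between IL-2 samples of a set. The kinase gene Pim1 fell by 0.78 (SE 0.22, adjusted p = 0.0443), which was no longer called without replicate 1 or 2 of the inhibitor (adjusted p = 0.256 and 0.491) or replicate 2, 3 or 4 of IL-2 (0.1 to 0.14). Irf8, which encodes a transcription factor of the interferon regulatory family, fell by 0.93 (SE 0.16), and Lta, the gene of lymphotoxin alpha, by 0.82 (SE 0.16; not called without replicate 2 of the inhibitor, adjusted p = 0.115).

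Promoters of 4 of these genes are shown because each holds the STAT5 motif TTCNNNGAA (the same letters on both strands) and because the genes had the smallest p of the list among those that do. Each run is the 250 bases before a transcript start, from RefSeq on GRCm38.p6, on the strand of the gene, with the motif in capitals. A gene with several transcript starts has several such windows, and the first that holds the motif is shown. They lie at chr10:118440796-118441045 (Ifng, plus strand), chr4:150927749-150927998 (Tnfrsf9, plus strand), chr8:120736108-120736357 (Irf8, plus strand) and chr17:35205352-35205601 (Lta, minus strand).
Ifng: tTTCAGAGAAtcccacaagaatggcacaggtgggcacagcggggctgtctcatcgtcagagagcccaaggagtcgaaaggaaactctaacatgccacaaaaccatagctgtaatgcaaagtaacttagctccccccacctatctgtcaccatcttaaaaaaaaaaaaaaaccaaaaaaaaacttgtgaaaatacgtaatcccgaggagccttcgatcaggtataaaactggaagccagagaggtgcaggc
Tnfrsf9: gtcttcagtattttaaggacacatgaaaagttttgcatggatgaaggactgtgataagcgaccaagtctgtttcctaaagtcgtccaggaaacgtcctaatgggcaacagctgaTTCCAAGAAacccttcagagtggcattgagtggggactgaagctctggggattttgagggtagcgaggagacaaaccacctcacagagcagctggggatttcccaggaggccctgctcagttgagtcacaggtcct
Irf8: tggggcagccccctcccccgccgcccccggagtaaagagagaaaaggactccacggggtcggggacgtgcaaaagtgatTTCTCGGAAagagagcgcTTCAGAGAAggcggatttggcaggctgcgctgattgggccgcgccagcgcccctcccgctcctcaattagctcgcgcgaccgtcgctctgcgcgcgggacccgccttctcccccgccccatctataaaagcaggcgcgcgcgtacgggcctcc
Lta: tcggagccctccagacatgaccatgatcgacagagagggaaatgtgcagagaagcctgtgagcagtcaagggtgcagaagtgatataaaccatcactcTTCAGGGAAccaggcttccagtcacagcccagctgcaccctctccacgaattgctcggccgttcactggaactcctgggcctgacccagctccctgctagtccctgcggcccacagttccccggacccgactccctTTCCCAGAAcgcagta

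The match begins 249 bases before the transcript start of Ifng and 136 before that of Tnfrsf9. Irf8 holds a pair of matches, 171 and 153 bases before the transcript start, and Lta another, at 152 and 16. The window of Tnfrsf9 belongs to an inner transcript start, 7844 bases inside the gene as RefSeq lists it, and that of Lta to one 227 bases inside, while those of Ifng and Irf8 end at the gene's outermost start. Of 22 lower targets with a promoter in the table, 6 (27.3%) held the motif, beside 6 of 38 (15.8%) of all measured members of the list with a promoter and 7.7% of 15483 measured genes with one. These shares count a gene when any of its windows holds the motif. A match describes letters in this window and not binding, and the list was assembled from known targets.

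Genes of killing and of secreted signals were lower beyond Gzmb and Ifng. Of 26 measured genes of cytotoxic granules and death ligands, 10 were lower and 2 were higher, with a median change of -0.30. Nkg7, a granule membrane protein gene, read 11.40 against 13.31 and 13.28 in the high set and 9.58 against 11.70 and 11.75 in the low set (change -2.02 ± 0.18, adjusted p = 4.15e-07). Prf1, which encodes the pore-forming protein perforin, fell by 2.49 (SE 0.26, adjusted p = 3.16e-06). Fasl, the death ligand, fell by 1.45 (SE 0.17) and Serpinb9, an inhibitor of granzyme B, by 2.05 (SE 0.23). The granule protease gene Gzma fell by 1.58 (SE 0.26), while its relative Gzmk was higher by 0.81 ± 0.16 (adjusted p = 0.00407). The higher member besides Gzmk was Lamp1, a general lysosomal membrane protein gene, at 0.51 ± 0.14. Neither rise was called without replicate 1 of the inhibitor (adjusted p = 0.0544 and 0.445) or without replicate 2 (0.177 and 0.187), and Lamp1 not without any 1 of the IL-2 samples either (0.0544 to 0.0933).

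Among cytokines and chemokines, 12 of 26 measured genes were lower and 1 was higher, with a median change of -0.48. Xcl1, a chemokine that draws cross-presenting dendritic cells, read 8.60 with the inhibitor against 11.26 and 11.31 with IL-2 in the high set, and 7.26 against 10.51 and 10.56 in the low set (change -2.98 ± 0.23, adjusted p = 7.72e-08). Ccl3 and Ccl4, chemokines of activated NK cells, fell by 2.22 (SE 0.26) and 2.05 (SE 0.20), and the cytokine gene Osm by 1.25 (SE 0.14). All of these were lower in both sets. The 1 higher member was Ccl9, a chemokine of myeloid cells, at 1.42 ± 0.16. In a list of TNF receptor family and checkpoint genes, 7 of 26 were lower (2 without replicate 1 of the inhibitor and 3 without replicate 2). Among them were Il12rb1, a chain of the interleukin-12 receptor (-1.48 ± 0.21), Tnfrsf18, which encodes GITR (-0.96 ± 0.20, not called without replicate 1 or 2 of the inhibitor, adjusted p = 0.122 and 0.0904), and Cd274, which encodes PD-L1 (-0.89 ± 0.16, not called without replicate 1, adjusted p = 0.0989). The 1 higher member of that list was Tnfrsf1b, a TNF receptor, at 0.87 ± 0.18 (not called without replicate 1 or 2, adjusted p = 0.145 and 0.0741).

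NK cell receptors and their adaptors showed the same direction. Of 35 measured members, 15 were lower and 1 was higher (Fcgr3, at 0.81 ± 0.22), and the median change was -0.51. Without replicate 1 of the inhibitor 8 were lower, without replicate 2 10, and Fcgr3 was called in neither case (adjusted p = 0.213 and 0.417) nor without replicate 1, 3 or 4 of IL-2. Sh2d1b2, an adaptor of SLAM family receptors, read 6.99 against 9.80 and 9.46 in the high set and 3.05 against 6.85 and 5.92 in the low set (change -2.98 ± 0.25, adjusted p = 2.5e-07). Klrb1c, which encodes the NK1.1 antigen named in the labels, read 9.62 against 11.14 and 11.30 and 7.32 against 9.25 and 9.36 (change -1.79 ± 0.28, adjusted p = 0.000285). Untreated cells gave 9.74, 7.70 and 7.08 for Klrb1c, so the level with the inhibitor was near that of cells without IL-2. Klrb1a, of the same receptor family, fell by 2.73 (SE 0.29), and Cd244a, which encodes the receptor 2B4, by 1.57 (SE 0.18). Probe sets of the Klra, Klrb1, granzyme, Gbp and Slfn families can share sequence with close relatives, and the share of such signal was not tested.

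Of 24 measured transcription factors of NK cells, 7 were lower and 2 were higher, with a median change of -0.01. The lower count was 3 without replicate 1 or 2 of the inhibitor and 4 without replicate 2, 3 or 4 of IL-2. Tbx21, which encodes T-bet, read 9.66 against 10.66 and 10.91 in the high set and 7.14 against 8.96 and 8.94 in the low set (change -1.47 ± 0.22, adjusted p = 0.000184). Id2, an inhibitor of E proteins needed for NK cells, fell by 1.22 (SE 0.16), Zbtb32, a repressor of the BTB family, by 1.09 (SE 0.15) and Eomes, the relative of T-bet, by 0.65 (SE 0.18), of which Eomes kept its call only without replicate 1 of IL-2 (adjusted p elsewhere 0.0552 to 0.639). The higher members were Zeb2, a transcriptional repressor that promotes late NK cell maturation, at 0.90 ± 0.13, and Id3, a relative of Id2, at 1.00 ± 0.19 (not called without replicate 1 of the inhibitor, adjusted p = 0.135).

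**Figure D2:**
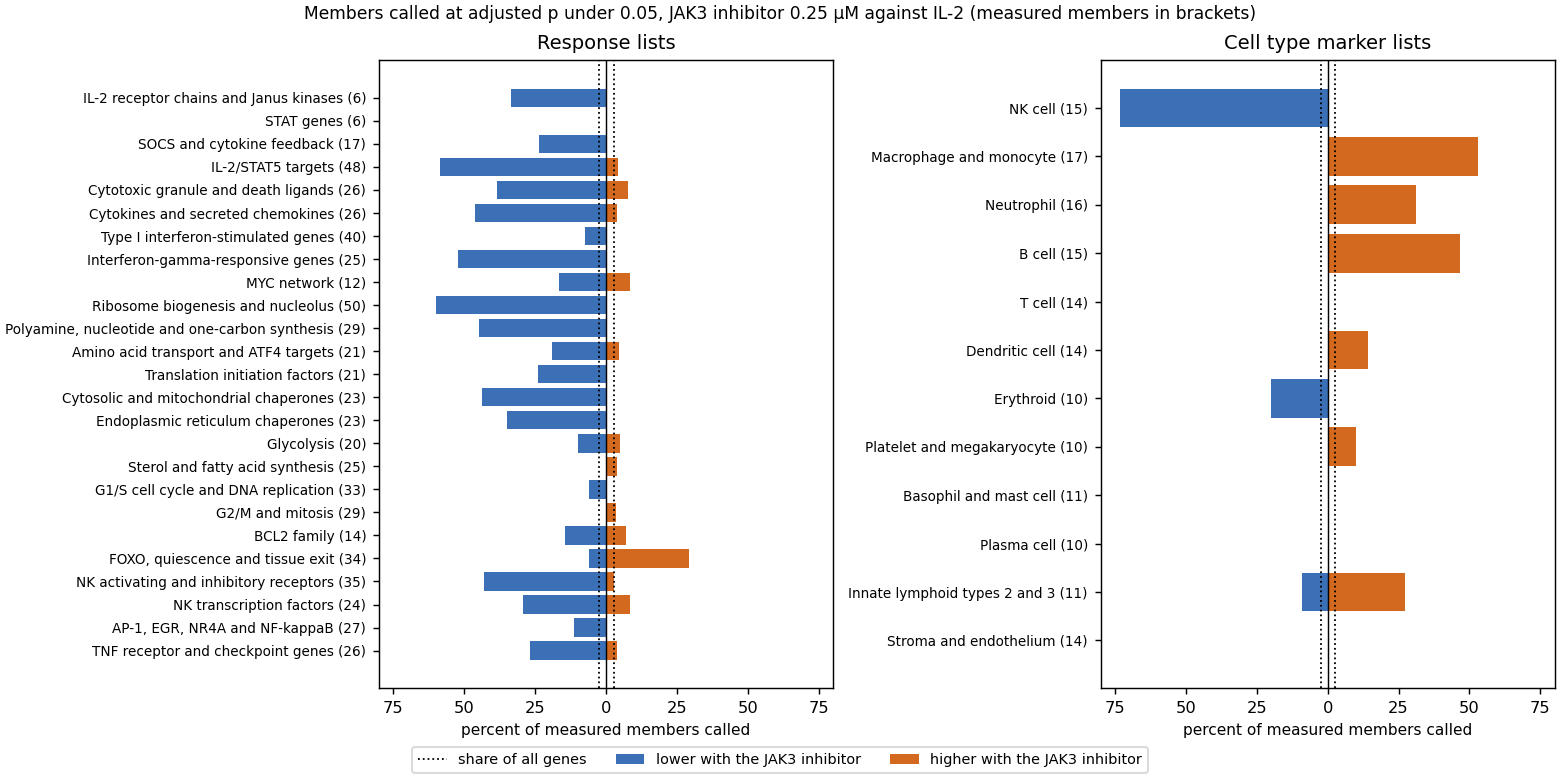
Percent of the measured members of each list (number in brackets) called lower (bars to the left) or higher (bars to the right) with 0.25 µM JAK3 inhibitor than with IL-2; dotted lines mark the share of all genes, 2.26% lower and 2.74% higher. IL-2/STAT5 targets (28 of 48 lower) and ribosome biogenesis (30 of 50 lower) show the longest bars to the left among the response lists, and macrophage and monocyte markers (9 of 17) the longest to the right.

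Growth genes were lower. Myc, the transcription factor that drives ribosome production and metabolism, read 9.10 with the inhibitor against 10.81 and 11.06 with IL-2 in the high set, and 7.95 against 9.79 and 9.75 in the low set (change -1.83 ± 0.22, adjusted p = 1.27e-05). Of 12 measured genes of the MYC network, Mycn also fell, by 0.84 (SE 0.22), with changes of -0.29 in the high and -1.39 in the low set and no call without replicate 2 of the inhibitor (adjusted p = 1.0) or without replicate 2, 3 or 4 of IL-2 (0.0504 to 0.105). Mxd4, a partner of MAX that opposes MYC, was higher by 1.00 ± 0.19, which was no longer called without replicate 1 or 2 (adjusted p = 0.0716 and 0.0535). Ribosome biogenesis had 30 of 50 measured members lower and 0 higher, with a median change of -0.74; 9 were lower without replicate 1 of the inhibitor and 10 without replicate 2. All 50 had a negative change, and 47 lay below both IL-2 samples of the set in both sets. Of all 19752 genes, 6878 had a negative change and 2551 (12.9%) lay below in this way.

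Rrp1b, a nucleolar protein gene, read 7.60 against 8.71 and 9.36 in the high set and 5.91 against 7.28 and 7.44 in the low set (change -1.44 ± 0.17, adjusted p = 1.68e-05). Dkc1 and Nop58, which belong to the particles that modify ribosomal RNA, each fell by 1.41 (SE 0.19 and 0.20), and Npm1, the nucleolar chaperone nucleophosmin, by 0.88 (SE 0.16; not called without replicate 1 of the inhibitor, adjusted p = 0.0788). Synthesis of polyamines, nucleotides and one-carbon units had 13 of 29 members lower and 0 higher (median -0.58). This count was 5 without either inhibitor sample and 7 or 8 without replicate 2, 3 or 4 of IL-2. Srm, spermidine synthase, read 9.42 against 11.08 and 11.36 and 8.29 against 10.18 and 10.09 (change -1.82 ± 0.19), and Ctps, which makes CTP, fell by 1.09 (SE 0.17). Both groups of genes were lower in both inhibitor samples. The leucine transporter gene Slc7a5 fell by 1.55 (SE 0.23), whereas Slc7a11, which imports cystine, was higher by 1.99 ± 0.23 (adjusted p = 9.55e-06). They stood in a list of amino acid transport and ATF4 targets with 4 of 21 members lower and 1 higher (1 lower without either inhibitor sample, 2 without replicate 3 or 4 of IL-2).

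Chaperones followed with smaller changes. In the cytosol and mitochondria 10 of 23 measured chaperone genes were lower and 0 higher (median -0.60), led by Hspd1, the mitochondrial HSP60, at -1.11 ± 0.16. In the endoplasmic reticulum 8 of 23 were lower (median -0.52), among them Pdia3, a disulfide isomerase, at -0.82 ± 0.16 (not called without replicate 2 of the inhibitor, adjusted p = 0.19). Of 21 translation initiation factors, 5 were lower and 0 higher. These counts were small without replicate 1 or replicate 2 of the inhibitor, at 1 and 2 for the first list, 1 and 0 for the second and 2 and 0 for the initiation factors. They also moved without single IL-2 samples, to 6 for the first list without replicate 4, 5 for the second without replicate 3 and 8 for the initiation factors without replicate 1. Glycolysis had 2 of 20 members lower (Pfkp, a phosphofructokinase, and the lactate carrier Slc16a1) and 1 higher (the carrier Slc16a3), none of which was called without replicate 1 of the inhibitor. Sterol and fatty acid synthesis had 0 of 25 lower and 1 higher (the desaturase Scd1, 0.92 ± 0.16, not called without replicate 1, adjusted p = 0.0538). In a list of AP-1, EGR, NR4A and NF-kappaB genes, 3 of 27 were lower (Fosl1, Jun and Egr1), with 1 without either inhibitor sample and 5 without replicate 1 of IL-2.

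Few cell cycle genes were called. At an unadjusted p under 0.05, 8 of 33 genes of the G1/S list were lower and 1 was higher. Of all 19752 genes, 1136 were lower at that level. The called share of the G1/S list was 6.06% lower, beside 2.26% of all genes, and its median change was -0.11. Of 33 genes of the G1/S phase and DNA replication, 2 were lower: Ccnd2, which encodes cyclin D2, at -2.10 ± 0.21 (adjusted p = 2.15e-06) and Cdk6, its kinase partner, at -1.35 ± 0.21 (adjusted p = 0.000286). Ccnd2 read 9.59 against 11.56 and 11.81 in the high set and 8.20 against 10.25 and 10.33 in the low set. Among 29 genes of G2/M and mitosis, 0 were lower, 1 was higher (the phosphatase gene Cdc25b, 1.10 ± 0.18), and the median change was 0.23. Of these 29 genes, 27 had a positive change, beside 12874 of all 19752 genes, and 2 were higher at an unadjusted p under 0.05. Within the BCL2 family, 2 of 14 genes were lower (Bcl2 and Bcl2l1, which encodes BCL-XL and was not called without replicate 1 or 2 of the inhibitor, adjusted p = 0.176 and 0.0585) and 1 was higher, the pro-apoptotic Bmf, at 0.81 ± 0.17 (not called without replicate 1 or 2, adjusted p = 0.109 and 0.157).

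Genes raised by interferon gamma were lower, while those raised by type I interferon mostly did not pass the test. Of 25 measured genes of the interferon gamma list, 13 were lower and 0 higher (median -0.78), and 8 were lower without replicate 1 of the inhibitor. Iigp1, a GTPase that attacks the vacuoles of parasites, read 6.47 with the inhibitor against 9.05 and 9.76 with IL-2 in the high set, and 4.82 against 7.49 and 7.31 in the low set (change -2.76 ± 0.18, adjusted p = 1.12e-08). Gbp4, a guanylate-binding protein gene, fell by 2.06 (SE 0.25). Cxcl9, an interferon gamma-induced chemokine, read 10.14 against 12.52 and 12.40 and 8.04 against 10.97 and 10.72 (change -2.56 ± 0.26, adjusted p = 1.98e-06). The Cxcl9 levels with the inhibitor lay between those with IL-2 and those of untreated cells, which were 7.77, 6.23 and 6.35.

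On the type I interferon list, 3 of 40 measured genes were lower (Mx1, Zbp1 and Ifi205) and 0 higher, although the median change was -0.54 and 20 members had an unadjusted p under 0.05, all of them lower. Irf7, the transcription factor that amplifies type I interferon, read 10.57 with the inhibitor against 10.71 and 10.93 with IL-2 in the high set, and 9.41 against 9.96 and 9.59 in the low set. The distance to IL-2 was of the size of the spread between IL-2 samples, and Irf7 was not called (-0.31 ± 0.29, adjusted p = 0.84). Usp18, which removes ISG15 and dampens the interferon receptor, read 9.40 against 10.65 and 10.67 and 8.82 against 10.15 and 9.41 (change -1.11 ± 0.34, adjusted p = 0.0712). The 3 lower genes are less secure than those of the interferon gamma list: without replicate 1 of the inhibitor, Mx1, Zbp1 and Ifi205 had adjusted p of 0.12, 0.507 and 0.598, and without replicate 3 of IL-2 1 gene of the list was lower.

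Genes of resting and recirculating lymphocytes were higher with the inhibitor. In a list of FOXO targets and genes of quiescence and tissue exit, 10 of 34 measured members were higher and 2 were lower, with a median change of 0.37 (4 higher without replicate 1 of the inhibitor and 5 without replicate 2). Il7r, the interleukin-7 receptor and a FOXO1 target, read 10.58 with the inhibitor against 8.57 and 8.94 with IL-2 in the high set, and 8.72 against 6.70 and 6.78 in the low set (change 1.90 ± 0.19, adjusted p = 1.54e-06). Cd7, a surface protein of lymphocytes, read 11.61 against 9.24 and 9.31 and 10.22 against 8.04 and 7.86 (change 2.31 ± 0.16, adjusted p = 1.3e-08). Both genes lay above every IL-2 sample of their set and close to untreated cells, which gave 10.86 (high set), 8.71 and 8.20 (low set) for Il7r and 11.31, 9.68 and 9.90 for Cd7. The chemokine receptor gene Cxcr4 was higher by 0.95 ± 0.13 and S1pr1, the receptor that guides exit into blood, by 1.00 ± 0.14. Cd69, an early activation marker that opposes S1PR1, fell by 1.75 (SE 0.21).

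Of the 10 largest rises, 9 were Clec4a3, Clec4a1, Adgre4, Vcan, Cd300ld, Tlr8, Cd36, Clec4n and Hpgd, and the other was Cd7. Adgre4 and Vcan stand on the macrophage and monocyte list, and the other 7 of the 9 on none of the lists. Clec4a3 and Clec4a1, C-type lectin receptors of myeloid cells, were higher by 2.93 ± 0.24 and 2.92 ± 0.19, and Adgre4, an adhesion receptor of macrophages, by 2.86 ± 0.22 (adjusted p = 7.72e-08). Adgre4 read 9.24 with the inhibitor against 6.32 and 5.95 with IL-2 in the high set, and 6.79 against 3.97 and 4.39 in the low set, beside 9.95 (high set), 6.71 and 6.86 (low set) in untreated cells. Hpgd, the enzyme that degrades prostaglandins, was higher by 2.18 ± 0.18, and the scavenger receptor gene Cd36 by 2.33 ± 0.23.

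Marker lists of other cell types were read beside these rises. Macrophage and monocyte markers had 9 of 17 measured members higher and 0 lower (median 1.30), and their mean level, adjusted for the set, was 8.34 to 8.38 with the inhibitor, 7.13 to 7.39 with IL-2 and 8.18 to 8.44 in untreated cells. Neutrophil markers had 5 of 16 higher (median 0.63), with mean levels of 8.77 to 8.79, 7.94 to 8.15 and 8.58 to 8.94 in the same order. B cell markers had 7 of 15 higher (median 0.57), with 9.72 to 9.75, 9.14 to 9.32 and 9.49 to 9.79. In all 3 lists the inhibitor samples lay above every IL-2 sample and inside the range of the untreated samples. No marker of these lists was called lower. The count of macrophage and monocyte markers was 9 in each fit that left out 1 of the 6 samples, while that of neutrophil markers was 2 without either inhibitor sample and 3 without replicate 3 of IL-2, and that of B cell markers 0 without replicate 1 of the inhibitor, 2 without replicate 2 and 4 without replicate 3 of IL-2.

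T cell markers had 0 of 14 called by limma, with 1 lower and 1 higher at an unadjusted p under 0.05 (median 0.20), and mean levels of 7.29 to 7.45 with the inhibitor and 7.17 to 7.30 with IL-2. Among dendritic cell markers 2 of 14 were higher, the lectin receptor gene Cd209a (1.97 ± 0.14) and Flt3, a growth factor receptor (1.09 ± 0.22, not called without replicate 1 or 2 of the inhibitor, adjusted p = 0.112 and 0.0875). Stroma and endothelium had 0 of 14 called and 0 with an unadjusted p under 0.05, and basophils and mast cells 0 of 11 called, with 1 higher unadjusted. Plasma cell markers had 0 of 10 called, with 1 in each direction unadjusted, and platelet markers 1 of 10 higher (Gp9, not called without either inhibitor sample or replicate 3 or 4 of IL-2). Erythroid markers had 2 of 10 lower, Car1 and the transferrin receptor gene Tfrc, neither called without replicate 1 of the inhibitor, and Car1 not without replicate 2 of IL-2. Markers of innate lymphoid cells of types 2 and 3 had Ncr1 lower and Il7r, Rora and Ccr6 higher, of 11 measured. The higher count was 1 without either inhibitor sample or replicate 1 of IL-2. The part of other cell types in the changes above was not tested.

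**Figure D3:**
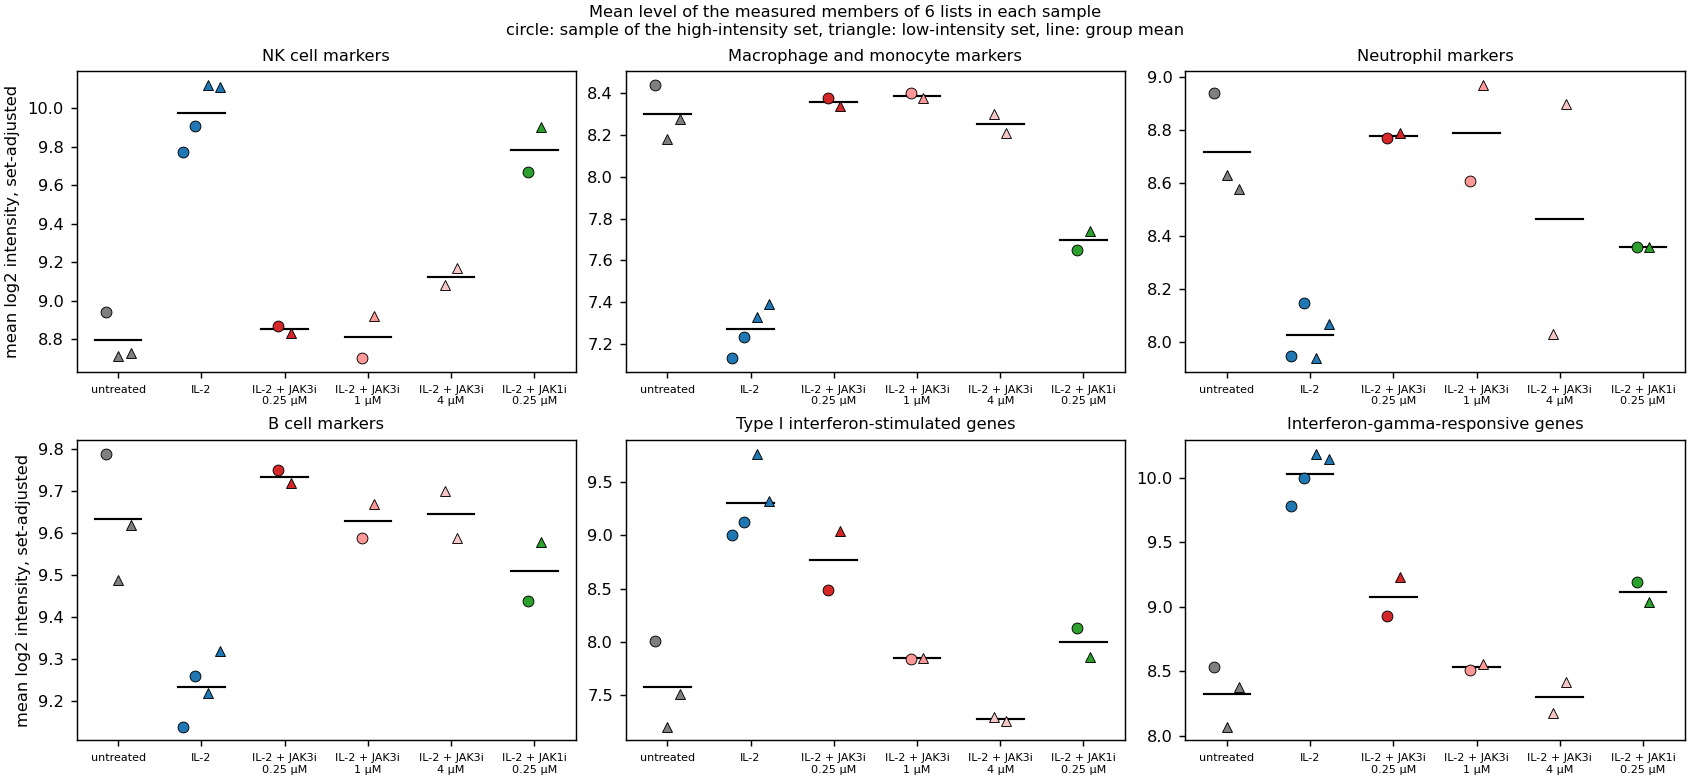
Mean log2 intensity, adjusted for the intensity set, of the measured members of 4 marker lists and 2 interferon lists in each sample of 6 groups; points are samples and lines are group means. With 0.25 µM JAK3 inhibitor the marker lists sit at untreated levels, while type I interferon genes lie at 8.49 and 9.04, above the untreated samples (up to 8.01) and below 3 of the 4 IL-2 samples (9.13 to 9.77).

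Comparison with untreated cells addressed how much of the IL-2 response was left under the inhibitor. Relative to untreated cells 17 of 19752 genes (0.0861%) were higher and 0 were lower (limma), beside 698 genes with an unadjusted p under 0.05, of which 97 were lower. Gzmb lay 0.85 ± 0.41 above untreated (95% interval -0.01 to 1.70), Prf1 0.34 ± 0.28 (-0.24 to 0.91), Cish 0.13 ± 0.17 (-0.22 to 0.48) and Il7r 0.05 ± 0.20 (-0.36 to 0.46). None of these 4 genes was called, and the intervals leave room for a residue of up to 1.70 on the log2 scale for Gzmb and 0.48 for Cish. Socs1 was 0.66 ± 0.16 above untreated (interval 0.32 to 1.00, adjusted p = 0.23). The median over the IL-2/STAT5 targets was 0.30 and over ribosome biogenesis 0.17, beside 0.07 over all genes. With IL-2 alone the medians above the same untreated samples were 1.06 and 0.89, beside -0.01 over all genes.

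Of the 17 genes above untreated, 9 stood on the 2 interferon lists. The 17 were Cxcl9, Slfn5, Usp18, Zbp1, Irf7, Gm12250, Oasl2, Ifit2, H2-T24, Ifi213, Slfn1, Ly6i, Ifi205, Wars, Pml, Sdc3 and Gbp7. Cxcl9 was 1.96 ± 0.27 above untreated (adjusted p = 0.0125). Slfn5, of the schlafen family, followed at 1.92 ± 0.36 (adjusted p = 0.0479), and Usp18 at 1.90 ± 0.36 (adjusted p = 0.0479). Irf7 read 10.57 with the inhibitor against 9.62 in the untreated sample of the high set, and 9.41 against 6.70 and 7.40 in the low set (change 1.79 ± 0.31, adjusted p = 0.0432). Wars, the interferon gamma-induced tryptophanyl-tRNA synthetase, was higher by 1.16 ± 0.20 and Pml, an organiser of nuclear bodies, by 1.14 ± 0.22.

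All 40 measured type I interferon genes had a positive change and an unadjusted p under 0.05 against untreated cells, with 7 called and a median of 1.19. Of all 19752 genes, 13315 had a positive change and 698 an unadjusted p under 0.05 in either direction, with a median of 0.07. The interferon gamma list had 2 of 25 called and a median of 0.66. These calls depend on single samples: 0 genes passed without replicate 2 of the inhibitor, 1 without untreated replicate 3, 1 without untreated replicate 4, and 86 without untreated replicate 2, the sample with no culture time. They also depend on the fit, with 2 genes after quantile normalization, 8 when only the 5 groups described here at up to 1 µM were fitted, 10 without an intensity trend, and 0 with the title-form term or within the high set. For 16 of the 17 genes the difference was larger in the low set than in the high set, as for Usp18 (2.72 and 0.72); Cxcl9 was the exception (1.75 and 2.38).

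**Figure D4:**
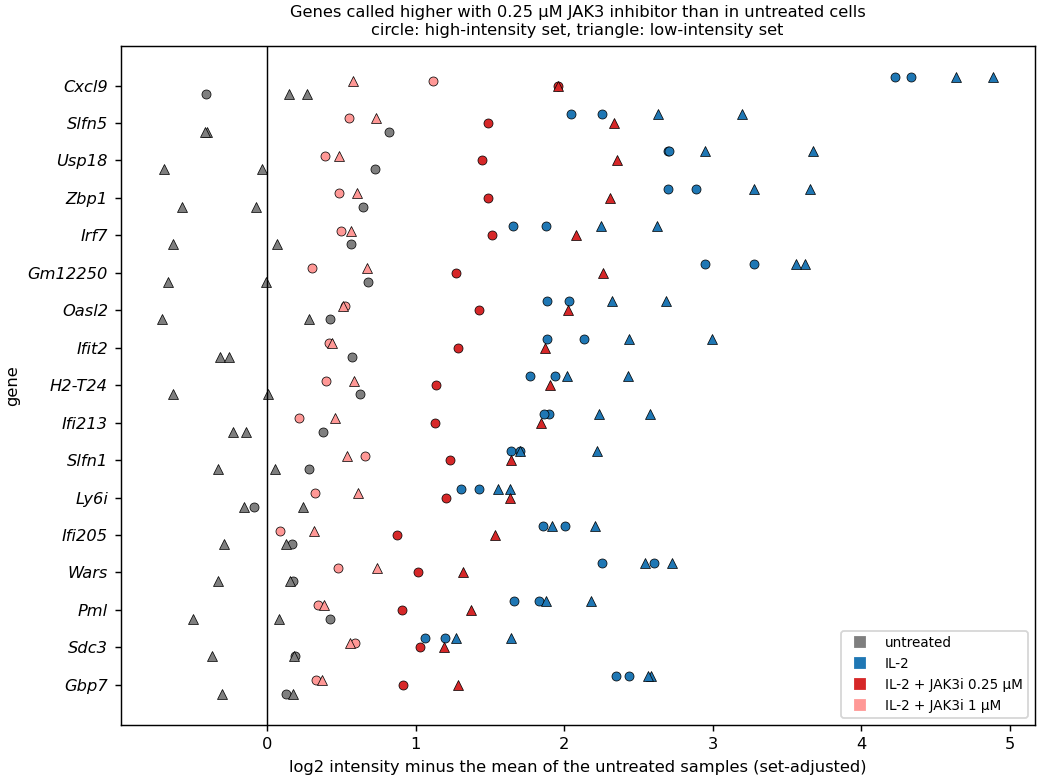
Log2 intensity of the 17 genes above untreated, adjusted for the intensity set and shown relative to the mean of the 3 untreated samples, in untreated, IL-2, and 0.25 µM and 1 µM JAK3 inhibitor samples (points are samples). The 0.25 µM points lie to the right of the untreated ones in each gene, from 1.10 for Gbp7 to 1.96 for Cxcl9 on average.

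Promoters of 4 of the 17 genes are shown because they hold the core of the interferon-stimulated response element, searched as GAAA, any 2 bases and GAAA again on either strand (on the other strand it reads TTTC, any 2 bases, TTTC). This motif was applied to these genes after their values were seen. The runs are again the 250 bases before a transcript start, from RefSeq on GRCm38.p6, on the gene's strand, at chr1:174031756-174032005 (Ifi205, minus strand), chr11:58183593-58183842 (Gm12250, plus strand), chr3:142530086-142530335 (Gbp7, plus strand) and chr1:173599273-173599522 (Ifi213, minus strand), with matches in capitals.
Ifi205: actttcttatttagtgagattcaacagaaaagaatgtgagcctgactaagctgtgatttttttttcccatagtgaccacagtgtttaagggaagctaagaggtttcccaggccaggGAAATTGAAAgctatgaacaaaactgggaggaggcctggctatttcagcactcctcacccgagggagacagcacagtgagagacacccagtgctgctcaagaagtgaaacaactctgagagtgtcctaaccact
Gm12250: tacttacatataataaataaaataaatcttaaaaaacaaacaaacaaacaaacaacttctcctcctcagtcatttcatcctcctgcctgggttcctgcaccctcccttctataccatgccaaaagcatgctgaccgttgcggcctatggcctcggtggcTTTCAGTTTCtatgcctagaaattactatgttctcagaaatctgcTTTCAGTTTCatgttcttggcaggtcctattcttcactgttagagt
Gbp7: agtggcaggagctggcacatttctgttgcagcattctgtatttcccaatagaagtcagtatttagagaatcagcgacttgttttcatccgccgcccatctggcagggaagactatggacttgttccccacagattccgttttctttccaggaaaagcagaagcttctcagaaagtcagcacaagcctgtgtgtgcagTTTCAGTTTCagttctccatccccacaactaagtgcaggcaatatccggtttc
Ifi213: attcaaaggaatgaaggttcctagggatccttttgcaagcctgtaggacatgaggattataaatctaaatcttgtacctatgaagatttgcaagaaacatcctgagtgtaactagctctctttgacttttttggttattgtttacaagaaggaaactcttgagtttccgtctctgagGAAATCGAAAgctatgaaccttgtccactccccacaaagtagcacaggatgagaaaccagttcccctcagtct

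The match begins 134 bases before the transcript start of Ifi205, 53 before that of Gbp7 and 73 before that of Ifi213, and Gm12250 holds matches at 91 and 46. The start used for Ifi213 lies 76 bases inside the gene, and the other 3 are the outermost starts. None of them overlaps a match of TTCNNNGAA. Of the 12 genes with a promoter in the table, 5 (41.7%) held this core and 3 held TTCNNNGAA, beside 3.4% and 7.7% of measured genes with a promoter.

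A higher dose of the same inhibitor was compared directly. Between 1 µM and 0.25 µM, 0 of 19752 genes were called (0.0% in either direction, limma), while 166 had an unadjusted p under 0.05, of which 149 were lower at 1 µM. When only these 2 groups were fitted 151 were called, 136 of them lower at 1 µM. That fit held 4 samples and 1 residual degree of freedom, with infinite prior degrees of freedom. Each gene's spread there came from the trend over all genes and not from its own values. With a replicate block and all samples 1 gene was called, Cxcl9 (limma, adjusted p = 0.0373). The difference was -0.02 for Ifng (95% interval -0.48 to 0.43), 0.12 for Cish (-0.26 to 0.50), -0.11 for Prf1 (-0.74 to 0.52) and -0.80 for Gzmb (-1.74 to 0.13). For Ifng and Cish the intervals bound any further fall at 1 µM to less than 0.5 on the log2 scale, while for Gzmb a fall of up to 1.74 is within the interval. The type I interferon list had a median difference of -0.89 between the doses and the interferon gamma list of -0.54, beside -0.04 over all genes. Usp18 differed by -1.47 (interval -2.29 to -0.65), Irf7 by -1.26 (-1.96 to -0.57) and Cxcl9 by -1.12 (-1.74 to -0.50), each with an adjusted p of 1.0 in the fit of all samples. This comparison and the one with untreated cells share the 0.25 µM samples.

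The changes from IL-2 at the 3 doses, which share the IL-2 samples, can be set side by side. Gzmb changed by -4.35 at 0.25 µM, -5.15 at 1 µM and -4.99 at 4 µM, Ifng by -3.77, -3.79 and -4.05, and Il7r by 1.90, 1.88 and 1.62. Usp18 gave -1.11, -2.57 and -3.76, and Cxcl9 -2.56, -3.68 and -4.96. The values for Usp18 and Cxcl9 are further from 0 at each higher dose. Both 4 µM samples lie in the low-intensity set, and 4 µM was not tested against 0.25 µM. Replicate 1 at 4 µM stood apart from replicate 2 in the mean level, adjusted for the set, of G2/M genes (6.14 against 7.40), T cell markers (6.44 against 7.34) and neutrophil markers (8.03 against 8.90). Its adjusted levels were 7.62 for Gzmb, 6.87 for Usp18 and 6.99 for Cxcl9, beside 7.93, 6.05 and 6.39 in replicate 2.

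At 0.25 µM the JAK3 inhibitor was compared with the JAK1 inhibitor, the 1 pair of compounds compared here. They were matched by concentration alone, and whether 0.25 µM blocks the target of each to the same degree was not tested. The 2 samples of each inhibitor lie 1 in each set, and a fit of these 4 samples alone has 1 residual degree of freedom. Of 19752 genes, 47 (0.238%) were lower and 42 (0.213%) were higher with the JAK3 inhibitor, of which 33 and 30 differed at least 2-fold, and 1301 genes had an unadjusted p under 0.05. The calls need all 4 samples: leaving out any 1 of them left between 5 and 23 genes. The count was 1114 when only these 2 groups were fitted, 348 with a replicate block, 299 with quantile normalization, 6 with the title-form term and 0 within either set.

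Effector genes of NK cells were lower with the JAK3 inhibitor than with the JAK1 inhibitor. Gzmb differed by -2.99 ± 0.45 (adjusted p = 0.00252), Ifng by -2.76 ± 0.22 (adjusted p = 1.56e-06), Klrb1a by -2.65 ± 0.34 and Xcl1 by -2.50 ± 0.26. Clnk, an adaptor of immune receptor signalling, differed by -2.18 ± 0.22 and Ncr1 by -2.08 ± 0.24. Each of these 6 genes was lower in both sets. Relative to the IL-2 samples that both inhibitors share, Ncr1 changed by -1.95 with the JAK3 inhibitor and by 0.13 with the JAK1 inhibitor, Klrb1a by -2.73 and -0.08, and Xcl1 by -2.98 and -0.48. By list, 12 of 48 IL-2/STAT5 targets, 5 of 26 granule genes, 4 of 26 cytokines and chemokines and 8 of 35 NK receptors were lower and 0 of each higher. The mean level of NK cell markers was 9.67 and 9.90 in the JAK1 inhibitor samples, beside 8.83 and 8.87 with the JAK3 inhibitor.

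Among the genes higher with the JAK3 inhibitor were Vcan, a matrix proteoglycan of monocytes, by 1.39 ± 0.27, Nfam1, a receptor adaptor, by 1.39 ± 0.23, Adgre4 by 1.37 ± 0.25, Cd300ld by 1.34 ± 0.19 and Cd14, the co-receptor for lipopolysaccharide, by 1.32 ± 0.23. Of 17 macrophage and monocyte markers 6 were higher and 0 lower, and their mean level was 7.65 and 7.74 with the JAK1 inhibitor. Their part in the result was not tested. Slfn5 was higher by 1.94 ± 0.40 (adjusted p = 0.0315). It was the 1 called gene of 40 on the type I interferon list, on which 28 genes were higher at an unadjusted p under 0.05 and the median difference was 0.69. Irf7 differed by 1.43 ± 0.33 (adjusted p = 0.0631) and Usp18 by 1.26 ± 0.39 (adjusted p = 0.272), neither of them called. The interferon gamma list had a median of 0.08, with Socs1 lower (-1.08 ± 0.18).

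Several IL-2 response genes did not pass the test between the inhibitors. The 95% interval of the difference was -1.13 to -0.15 for Il2ra, -1.01 to -0.12 for Il2rb, -1.40 to -0.36 for Myc and 0.52 to 1.41 for Il7r, so 0 lies outside each of them although the adjusted p were 0.479, 0.493, 0.179 and 0.052. The interval was -0.22 to 0.85 for Pim1, -0.57 to 0.25 for Socs3 and -0.67 to 0.15 for Socs2. For Jak1 it ran from -0.18 to 0.48, for Stat5a from -0.27 to 0.62, and for Iigp1 from -0.61 to 0.26. Differences larger than 0.85 in either direction lie outside the intervals of these 6 genes.

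**Figure D5:**
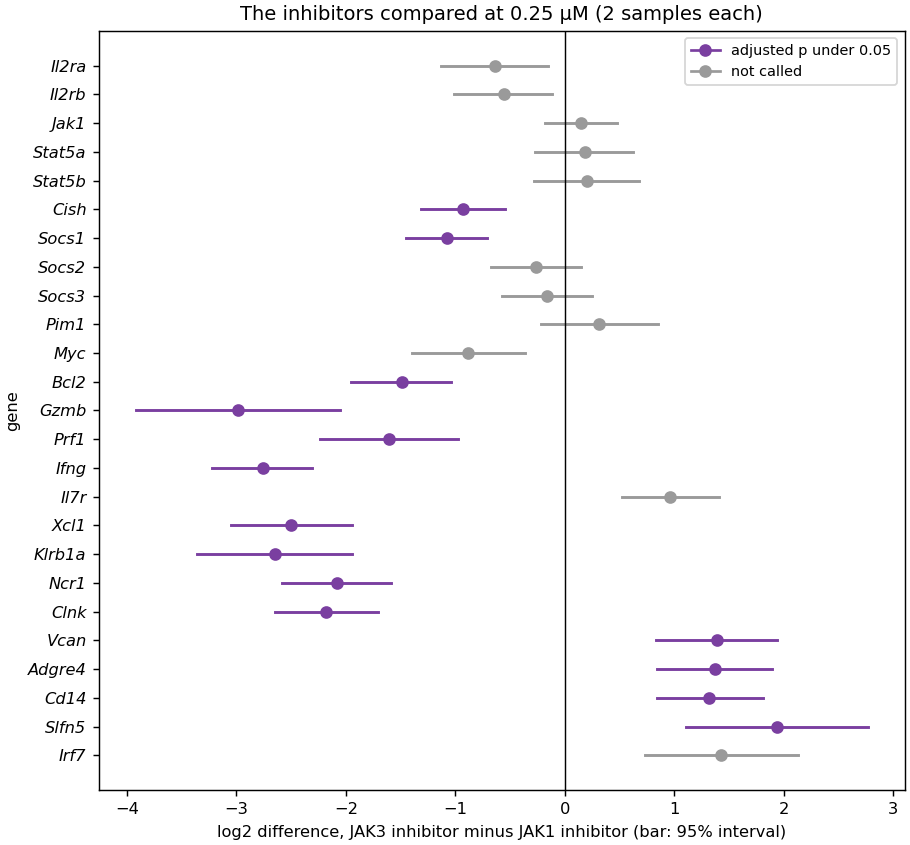
Log2 difference between the JAK3 and JAK1 inhibitors at 0.25 µM for 25 genes, with 95% intervals; purple marks an adjusted p under 0.05. Gzmb, Ifng, Xcl1, Klrb1a, Ncr1 and Clnk lie between -2.99 and -2.08, and Vcan, Adgre4, Cd14 and Slfn5 between 1.32 and 1.94.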

How the data were processed

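The deposited values are linear intensities of 24922 probe sets, made by the authors with Affymetrix Power Tools and RMA per the submitters' processing notes; versions, settings and array batches are not given in the sources used here. Its 2 value scales were split at a median log2 intensity of 6.6. Values were turned into log2; 21425 probe sets had 1 gene symbol in the platform annotation, 1399 had several and 2098 had none, and for 921 genes with several probe sets the brightest on average stood for the gene. No detection values were used, so levels near background cannot be marked, and the number of arrays limits the precision.

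A mean per group and a term for the scale set were fitted over all 19 samples with limma 3.58.1 in R 4.3.3 (lmFit, eBayes with an intensity trend; residual degrees of freedom 9, prior 10.5); a group with a lone sample was taken to vary as the rest do. Adjusted p-values in the text are limma's. Levels adjusted for the set have the fitted set term removed. The method was tested on simulated data with 200 changed genes and independent normal noise of the fitted size. There 211 genes were called, 13 of them falsely. Such noise holds no effects shared by the genes of a sample, so the simulation cannot show how these would move the counts. Samples were grouped by their titles.

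The 25 response lists (640 of 687 entries matched) and 12 marker lists (157 of 176) and the comparisons were chosen with earlier results of these data known. Genes named are the 10 largest falls and rises with the same sign in both sets (predicted genes passed over), up to 4 members of smallest p per list, 18 IL-2 pathway genes, and the 5 largest changes and other called genes of the further comparisons; other list members were named after their values were seen. Promoters from RefSeq (GRCm38.p6) were found for 15483 measured genes. Alternatives were a fit of only the groups compared or of 5 groups, quantile normalization, a title-form term, each set alone, a replicate block, brighter genes only, the mean of probe sets, no trend, and leaving out each sample.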

Additional observations from a re-analysis of the deposited data

Results flagged for a closer look

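In the 4 IL-2 samples, 161 genes and the list means, 198 values in all, were searched for a sample far from the others, and 12 were found, where chance gives about 1 in 20. Values are log2 intensities adjusted for the set. IL-2 replicate 1 was low for Myc (10.15, the others 10.40 to 10.45), Socs2 (7.81, the others 8.18 to 8.26), Cdk4 (10.47, the others 10.75 to 10.77), Idi1 (8.35, the others 8.73 to 8.76), Car2 (9.25, the others 9.63 to 9.67), Thy1 (10.68, the others 11.02 to 11.05), Pecam1 (8.81, the others 9.06 to 9.11), Xbp1 (10.36, the others 10.48 to 10.50) and the mean of the endoplasmic reticulum chaperones (9.43, the others 9.69 to 9.71). IL-2 replicate 3 was high for Slfn1 (9.86, the others 9.28 to 9.34) and Il15ra (8.33, the others 7.87 to 7.91) and low for Alas2 (5.58, the others 5.86 to 5.88).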

How the results depend on the processing

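The count of genes changed against IL-2 (987) was 2258 with only the 2 groups fitted, 1785 with quantile normalization, 90 with a title-form term, and by limma in 1 set alone 113 (low) and 0 (high, with 939 at an unadjusted p under 0.05); leaving out 1 sample gave 309 to 1034. With only brighter genes, the mean of probe sets, no trend or 5 groups it was 983 to 1091. Without IL-2 replicate 1 the split turned to 456 higher and 578 lower. Against untreated cells (17) it was 2 with quantile normalization, 0 with the title-form term, 0 within the high set, 10 without a trend, 8 with 5 groups, and 0 to 86 leaving out 1 sample. Between 1 and 0.25 µM it was 151 with only the 2 groups fitted, and 0 in each fit that left out 1 sample. Between the inhibitors (89) it was 1114 with only the 2 groups fitted, 299 with quantile normalization, 6 with the title-form term, 0 within either set, and 5 to 23 leaving out 1 sample. The cause of these shifts was not tested. The title-form term puts 4 µM replicate 1 on the other scale, and its fit had infinite prior degrees of freedom, beside 10.5 in the main fit. The 2-group fits between the doses and between the inhibitors held 4 samples and 1 residual degree of freedom each. Inhibitor and IL-2 samples share 2 replicate numbers. Deviations of same-numbered samples from their group means correlated at -0.175 and -0.054. With 2 inhibitor samples these deviations mirror each other, so they cannot show whether the numbers pair samples. With the replicate block the counts were 726 (546 higher, 180 lower) against IL-2, 24 against untreated, 1 (Cxcl9, adjusted p = 0.0373) between the doses and 348 between the inhibitors.

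Against IL-2, 5 genes that were not called changed sign: Ms4a2 (-0.04 within the high set, -0.01 to 0.37 leaving out 1 sample), Ly6i (0.04 within the low set, 0.19 with the replicate block, -0.31 to 0.19 leaving out 1 sample), Kdr (0.17 with the block, -0.53 to 0.16 leaving out 1 sample), Sdc3 (0.11 with the block) and Irf7 (-0.63 to 0.02 leaving out 1 sample).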
